A study of Mus musculus with 24 samples.

Results

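The subject is the cytokine RANKL (gene Tnfsf11), its signalling receptor RANK (Tnfrsf11a), its decoy receptor osteoprotegerin (Tnfrsf11b), and 5 genes of the path from receptor to nucleus (Traf6, Traf1, Nfkb2, Relb and Nfkbia). These 8 genes were taken by their symbol on the array, out of 18193 genes that had a probe set with a single symbol, and each was read from its brightest probe set over the 24 arrays. A gene was tested if that probe set exceeded the array's median intensity on 3 or more arrays, which held for 12352 genes and for 7 of the 8. Tnfrsf11b never lay above the median and is given from a fit without that filter.

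RNA came from whole mammary glands of nulliparous BALB/c mice (spelled Balb/c in the labels) whose ovaries had been removed at 6 weeks of age and which were then left for 2 weeks. The progesterone groups were given 1 mg of progesterone in 100 µl of sesame oil under the skin each day, and glands were taken 4, 16, 28 or 76 h after dosing began. The oil groups were given 100 µl of sesame oil and were sampled at the same 4 times. The labels do not give the number of injections before 28 and 76 h or the time since the last one, so that time and number of doses cannot be told apart. Each of the 8 groups had 3 arrays, and each array held the pooled RNA of 5 mice, so that an SD here is a spread between pools. All mice lacked ovaries, in both arms, so that the glands had no ovarian oestrogen source. The comparison asks what progesterone alone does to these transcripts over the first days of dosing.

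RANKL is a membrane-bound or shed member of the tumour necrosis factor family. It binds RANK, which recruits TRAF adaptors, and these switch on the kinases that free NF-kB from its inhibitors. In the canonical branch the inhibitor IkB-alpha (Nfkbia) is destroyed, and in the non-canonical branch the p100 precursor (Nfkb2) is trimmed so that it enters the nucleus with RelB. In the mouse mammary gland RANKL is made by progesterone receptor-positive luminal cells and acts on neighbouring epithelial cells, where it is known for driving proliferation and the growth of alveoli. Osteoprotegerin is a secreted receptor that binds RANKL and keeps it from RANK.

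Values are linear intensities of the Affymetrix Mouse Genome 430 2.0 array. Array medians lay between 62.8 and 70.2, and a value under the median lies near background, where a fold change is imprecise. Correlations between arrays of a group were 0.966 to 0.993 over probe sets. In each group of markers for luminal epithelium (12 genes), basal epithelium (10 genes) and white adipocytes (7 genes), every gene passed the filter, so that the label of whole mammary tissue was met by its markers. All 8 skeletal muscle markers passed it too, and their summed intensity varied widely between arrays. With oil it was 26017 to 45452 at 16 h and 7419 to 26550 at 76 h. A gene was called where limma's moderated test of progesterone minus oil had a Benjamini-Hochberg adjusted p under 0.05 over all tested genes. A pair of arrays decided many calls: without progesterone array 1 at 16 h 1843 genes were called in all, beside 38 with it, and without progesterone array 3 at 4 h 477 were called, beside 23 with it. Their mean correlation with the other arrays of their group was 0.972 (the lowest of the 24) and 0.979 (not the lowest). Calls of the members at those times, and counts of the gene lists other than cell type markers, are given with and without them where they differ. For cell type markers only some of these counts are given.

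Tnfsf11 was the member with the large response, and it came at 76 h. At 4 h, 0 of the 7 tested members were called, where 0.186% of all tested genes were. At 16 h the count was again 0 of 7 (0.308% of all genes), and at 28 h it was 0 of 7 (2.53% of all genes). At 76 h Tnfsf11 was called higher and Traf1 lower, which is 2 of 7 members where 17.8% of all genes were called (11.1% higher and 6.7% lower). The median difference of the 7 members was -0.10, -0.18, -0.09 and 0.03 on the log2 scale at 4, 16, 28 and 76 h, beside -0.01, -0.07, 0.00 and 0.02 for all genes. At an unadjusted p under 0.05 the members numbered 1, 1, 0 and 2 at those times. The progesterone and oil arrays did not overlap for 2, 1, 1 and 2 of the 7 members, where 19%, 17.1%, 12% and 44.7% of all genes were so separated.

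**Figure D1:**
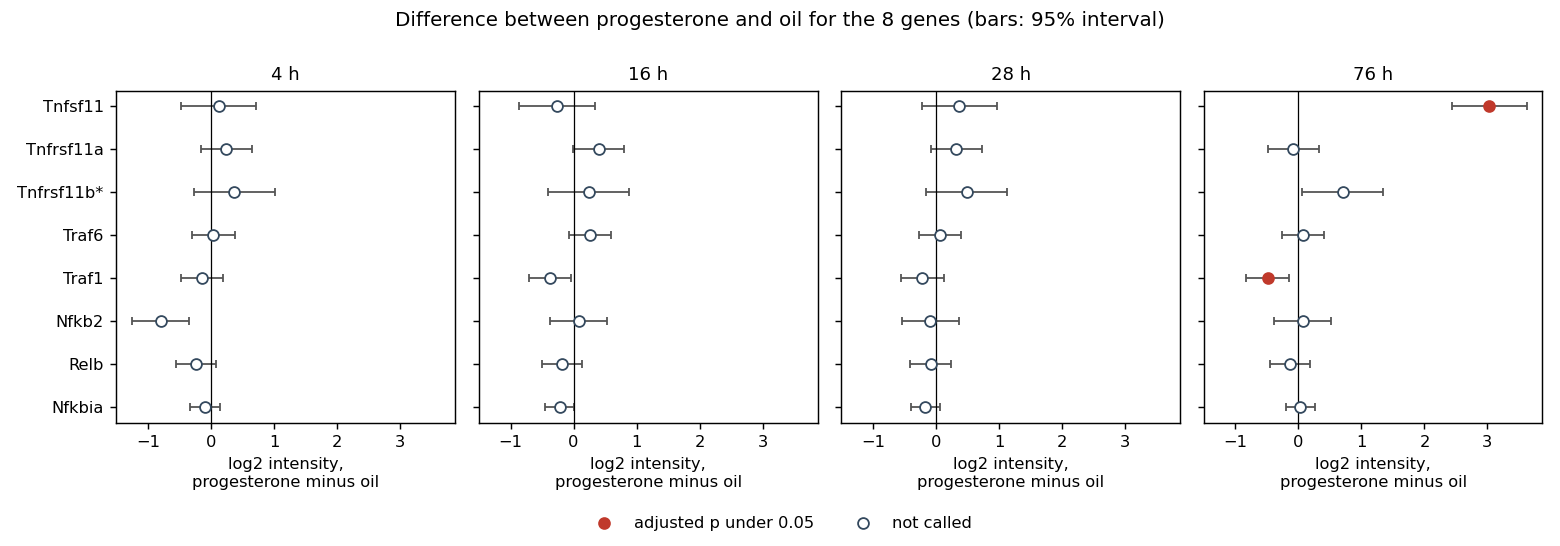
Difference in log2 intensity between progesterone and oil (horizontal axis) for each of the 8 genes at 4, 16, 28 and 76 h, with 95% intervals from limma and 3 arrays per group. Filled points are called (adjusted p under 0.05). Tnfsf11 at 76 h stands at 3.03 and Traf1 at -0.49. The asterisk marks Tnfrsf11b, which did not pass the filter on low values and comes from the fit without it.

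Tnfsf11, the ligand, was read from probe set 1419083_at. The RefSeq promoter window of the gene (250 bases before to 50 after the start, GRCm38.p6, chr14:78307994-78308293, minus strand) is shown because this is the gene whose transcript changed most. The capitals mark the letters TATAA, which on both strands overlap in 6 bases and begin 31 bases before the start. TATAA occurs on either strand in 24.9% of 32851 promoter windows.
Tnfsf11: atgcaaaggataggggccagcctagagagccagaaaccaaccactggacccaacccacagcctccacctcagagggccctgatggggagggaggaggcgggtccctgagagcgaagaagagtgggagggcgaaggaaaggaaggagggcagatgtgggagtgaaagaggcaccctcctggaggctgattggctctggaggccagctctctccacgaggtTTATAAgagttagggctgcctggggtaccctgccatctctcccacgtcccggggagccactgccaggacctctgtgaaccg
The window holds no match on either strand to the palindromic progesterone receptor element, which 0.167% of windows hold, or to its single arm TGTTCT, which 19% hold. It holds none to the NF-kB (kB) consensus motif, which 8.46% hold, or to the STAT letters TTCNNNGAA, which 8.3% hold. The absence says only that these letters are not in these 300 bases.

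At 4 h the 3 progesterone arrays read 44.3, 37.5 and 64.4 for Tnfsf11, against 35.8, 41.0 and 56.5 on the oil arrays. At 16 h they read 70.5, 33.0 and 28.0 with progesterone, against 45.9, 46.7 and 52.4 with oil. The groups overlapped at both times, and all but 1 of these 12 values lay under the median of their array. At 28 h the values were 64.5, 67.9 and 80.4 with progesterone, against 67.0, 67.7 and 36.1 with oil, which again overlap. At 76 h they were 358, 361 and 361 with progesterone, against 35.9, 49.1 and 48.4 with oil. The 3 progesterone arrays at 76 h thus lay within 3 units of each other and well above every other array, of which the highest read 80.4.

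The log2 differences of Tnfsf11 were 0.12 ± 0.29, -0.26 ± 0.29 and 0.37 ± 0.29 (SE) at 4, 16 and 28 h, with adjusted p of 0.903, 0.640 and 0.719. Without progesterone array 3 the 4 h difference was -0.10 (adjusted p = 0.908), and without progesterone array 1 the 16 h difference was -0.67 (adjusted p = 0.0847). At 76 h the mean was 360 ± 1.66 with progesterone and 44.5 ± 7.39 with oil (SD, n = 3 each). The difference was 3.03 ± 0.29 (95% interval 2.44 to 3.63, adjusted p = 8.04e-08), an 8.18-fold higher intensity. It was rank 14 among the rises of 12352 genes and rank 48 by p. The oil arrays lay under the array median at 76 h, so that the size of the fold is less certain than its direction.

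Ordered by mean, the 8 groups ran from 360 (progesterone, 76 h) and 71.0 (progesterone, 28 h) through 56.9 (oil, 28 h), 48.8 (progesterone, 4 h), 48.3 (oil, 16 h), 44.5 (oil, 76 h) and 44.5 (oil, 4 h) to 43.9 (progesterone, 16 h). Progesterone at 76 h stood alone, and among the other 7 each overlapped its neighbours in that order. The 76 h difference was then set against each earlier one. The 76 h difference exceeded that at 4 h by 2.91 ± 0.41 (adjusted p = 6.13e-05), that at 16 h by 3.29 ± 0.41 (1.64e-05) and that at 28 h by 2.66 ± 0.41 (0.000187), on the log2 scale. Over all 4 times the moderated F-test gave an adjusted p of 2.85e-05, and Tnfsf11 was the only 1 of the 7 members called, where 10% of all genes were. The oil groups showed no called drift for Tnfsf11 (adjusted p = 0.745). Set against the 9 oil arrays from the other 3 times, progesterone at 76 h was higher by 2.89 ± 0.24 (adjusted p = 3.12e-09), in a comparison that called 32.6% of all genes.

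A second probe set of the gene, 1451944_a_at, gave 239, 213 and 238 with progesterone at 76 h, against 42.0, 37.5 and 34.6 with oil. That is a difference of 2.60 ± 0.31 (adjusted p = 1.66e-06). The differences it gave at 4, 16 and 28 h were -0.15, -0.48 and 0.52, and none was called. It crossed its array median only on the 3 progesterone arrays of 76 h. The probe sets of Tnfsf11 ran together over the 24 arrays (Pearson r = 0.942 on the log2 scale, a description that rests largely on the 3 high arrays).

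**Figure D2:**
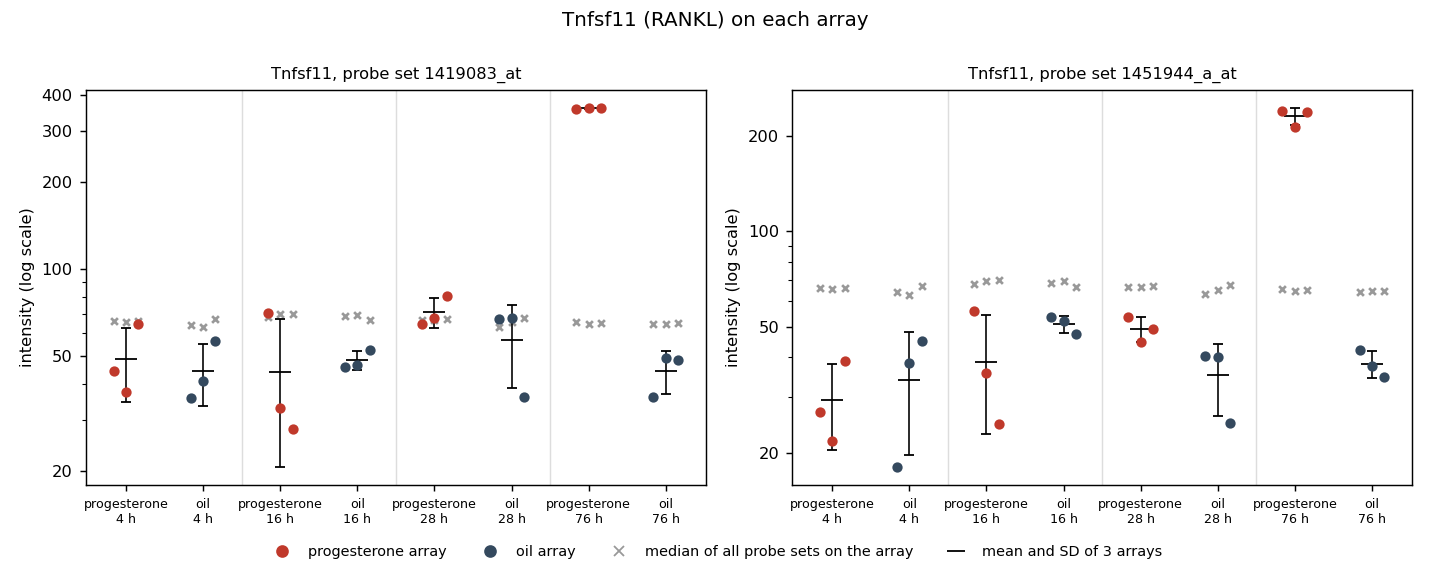
Intensity of the Tnfsf11 probe sets (vertical axis, log scale) on each of the 24 arrays, with the mean and SD of 3 arrays per group. Grey crosses give the median of all probe sets on each array. The 3 progesterone arrays at 76 h read 358 to 361 on the left panel, while the other 21 arrays read 28.0 to 80.4, close to or under the median.

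Markers of cell types differed at 76 h too, and some were called earlier. Of the basal markers 3 were higher at 16 h and 3 at 28 h (Krt17 by 2.11 and 2.66), while 2 mitosis genes were lower at 28 h. With single arrays left out these counts were 0 to 4, 2 to 3 and 0 to 6. At 28 h, 3 fibroblast markers were also higher and 3 B and plasma cell markers lower. With oil arrays of the other times as control, 0 mitosis, fibroblast or B and plasma cell markers were called at 28 h, while 5 basal markers were higher. That comparison called 0.874% of all genes. In it Mki67 and Top2a differed by -0.29 and -0.26, beside -0.95 and -0.83 against their own oil. Of the hormone-sensing luminal markers, 2, 2 and 3 were lower at 4, 16 and 28 h against the oil of the same time. With single arrays left out these were 2 to 3, 1 to 4 and 3. In tissue RNA, more or fewer cells of a type and more or less RNA per cell cannot be told apart. At 76 h, 11 of 12 luminal markers rose (median 1.66), and their summed intensity was 16585 to 18932 with progesterone, against 5304 to 6543 with oil. Of 10 basal markers 8 rose (sums 11085 to 11853 with progesterone and 6917 to 7810 with oil), and of 9 mitosis genes all 9 rose (3742 to 5763 with progesterone and 1331 to 1716 with oil). Of 7 luminal progenitor and alveolar markers 4 rose and 2 fell (Lalba by 1.54 and Ltf by 1.32). Of 6 fibroblast markers 4 rose, a count that was 1 to 4 with single arrays left out. Of 7 markers of hormone-sensing luminal cells, the source of RANKL in mice, 3 rose (Foxa1 by 0.98, Tbx3 by 0.96 and Cited1 by 0.78) and Ly6d fell by 1.14, with sums of 3667 to 4427 with progesterone and 2570 to 3210 with oil. The difference of Tnfsf11 (3.03) was above that of each of the 12 luminal markers, the highest of which was Ehf at 2.66. The gap to Ehf was not tested, and limma's interval for the Tnfsf11 difference, 2.44 to 3.63, includes 2.66. The other probe set of Tnfsf11, 1451944_a_at, gave 2.60 at 76 h, which is below Ehf. The part of these markers in the rise of Tnfsf11 was not tested.

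Tnfrsf11a, which encodes RANK, was not called at any time. At 4 h probe set 1419214_at read 73.4, 72.2 and 85.9 with progesterone, against 75.2, 58.0 and 63.2 with oil. At 16 h it read 66.6, 112 and 117 with progesterone, against 65.5, 71.6 and 80.0 with oil. A single progesterone array kept the 16 h groups from standing apart. At 28 h the values were 103, 69.6 and 87.7 with progesterone, against 68.1, 62.4 and 76.0 with oil. At 76 h, when its ligand was high, they were 63.3, 65.0 and 83.2 with progesterone, against 72.7, 77.2 and 72.0 with oil. The groups overlapped at each time, and 18 of 24 values lay above the array median, the highest at 117.

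The log2 differences of Tnfrsf11a were 0.24, 0.40, 0.32 and -0.08 (SE 0.20 each) at 4, 16, 28 and 76 h, with adjusted p of 0.662, 0.285, 0.577 and 0.834. The 95% interval at 76 h ran from -0.48 to 0.33. Without progesterone array 1 at 16 h the 16 h difference was 0.66 and was called (adjusted p = 0.0227). The F-test over the times was not called (adjusted p = 0.557). A second probe set, 1430259_at, was above the array median on 1 array only and gave 0.28, 0.25, 0.12 and -0.11 with no call.

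Tnfrsf11b, the decoy receptor, stayed near background. At 76 h its brighter probe set, 1418309_at, read 28.6, 31.8 and 29.3 with progesterone, against 28.9, 12.2 and 17.6 with oil. The groups overlap through 1 oil array, and over all 24 arrays the values were 11.5 to 32.1, each under the array median. The log2 differences in the fit without a filter were 0.37, 0.24, 0.49 and 0.70 (SE 0.31 each) at 4, 16, 28 and 76 h, and at 76 h the adjusted p was 0.171. Without oil array 1 at 76 h it was called, with 1.03 (adjusted p = 0.0488).

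The dimmer probe set of Tnfrsf11b, 1449033_at, separated the groups at 28 and 76 h. At 28 h it read 21.7, 16.5 and 19.2 with progesterone, against 4.80, 6.72 and 6.32 with oil. At 76 h it read 48.8, 33.4 and 41.9 with progesterone, against 7.29, 5.28 and 14.7 with oil. The differences were 1.37 ± 0.33 (adjusted p = 0.0428) and 2.14 ± 0.33 (adjusted p = 0.000161). All these values lie under the array median, and 7 of its 24 values lie under the floor of 7.38 that was set before log2 was taken, which makes the differences too small. At 4 and 16 h it gave 0.50 and -0.36 with no call. The probe sets of this gene differed in size of change, and which one follows the transcript was not tested.

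**Figure D3:**
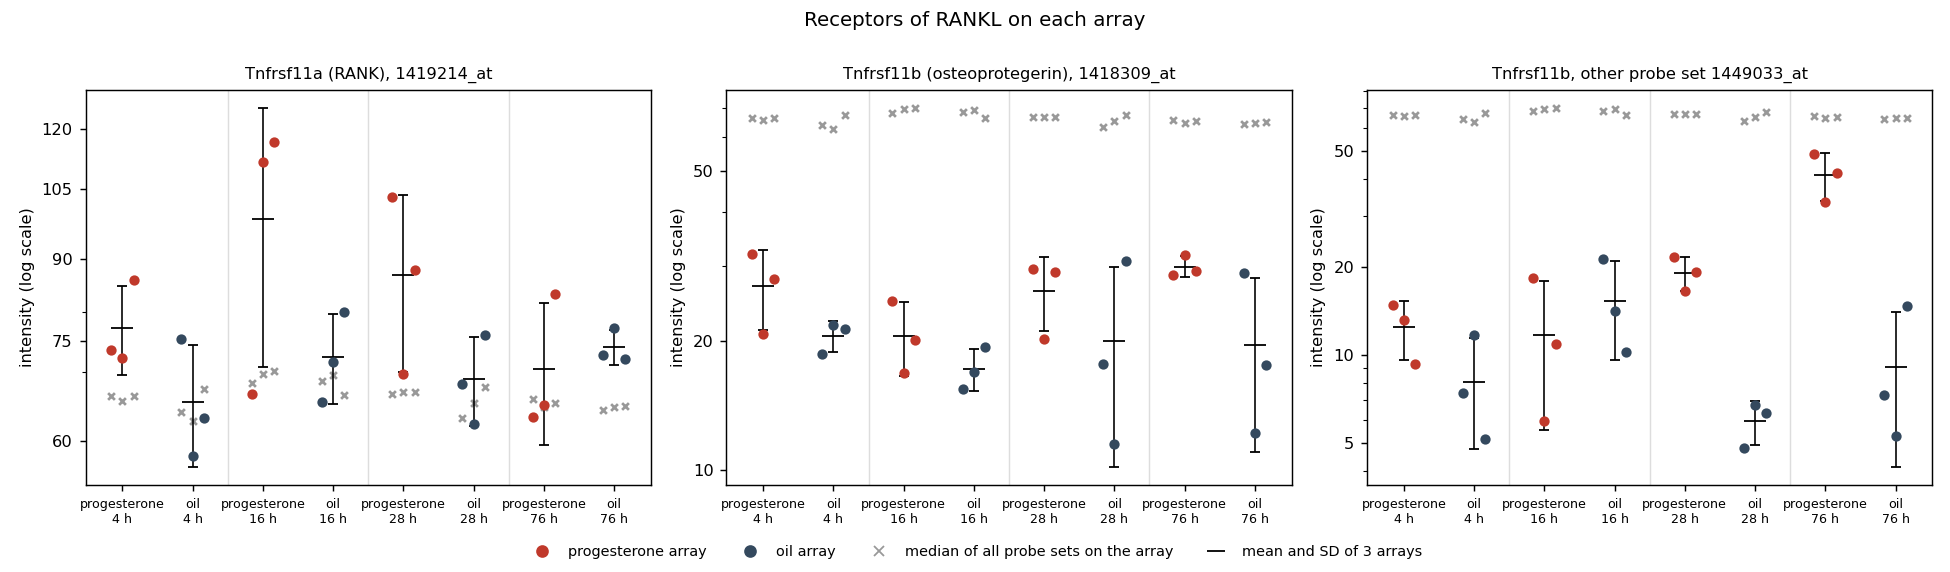
Intensity (vertical axis, log scale) of Tnfrsf11a and of both Tnfrsf11b probe sets on each of the 24 arrays, with the mean and SD of 3 arrays per group and the array medians as grey crosses. Tnfrsf11a lies about the median with overlapping groups. Both Tnfrsf11b probe sets lie under it on all arrays, and 1449033_at reads 33.4 to 48.8 with progesterone at 76 h, against 5.28 to 14.7 with oil.

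Traf6, the adaptor that RANK needs for canonical signalling, was above the array median on all 24 arrays and was not called at any time. Probe set 1435350_at read 221 to 293 with progesterone and 230 to 300 with oil at 4 h. At 16 h it read 244, 352 and 381 with progesterone, against 248, 260 and 297 with oil. These groups overlap through progesterone array 1, and without it the difference of 0.26 ± 0.16 was 0.45 (adjusted p = 0.0536). At 28 h the ranges were 263 to 309 with progesterone and 232 to 336 with oil, and at 76 h they were 240 to 292 with progesterone and 235 to 273 with oil. The differences at 4, 28 and 76 h were 0.04, 0.07 and 0.07, with adjusted p of 0.954, 0.955 and 0.823. At 76 h the 95% interval was -0.26 to 0.40. The other 4 probe sets of Traf6 gave no call at any time.

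Traf1, an adaptor that NF-kB itself induces and that is abundant in lymphocytes, was lower with progesterone at 76 h. At that time probe set 1423602_at read 149, 156 and 136 with progesterone, against 207, 223 and 190 with oil. The groups did not overlap, with means of 147 ± 10.6 with progesterone and 206 ± 16.6 with oil (SD, n = 3 each). The difference was -0.49 ± 0.16 (adjusted p = 0.0392), or 1.40-fold lower. The call lies close to the threshold: without any one of the 6 arrays of 76 h the difference was -0.55 to -0.43 with adjusted p of 0.0504 to 0.143. With the 9 earlier oil arrays as control it was -0.50 (adjusted p = 0.00578, in the comparison that called 32.6% of all genes). The other probe set of the gene, 1445452_at, read 78.0, 108 and 94.8 with progesterone, against 103, 125 and 127 with oil, a difference of -0.34 that was not called (adjusted p = 0.422).

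At 16 h Traf1 read 200, 165 and 140 with progesterone, against 228, 208 and 213 with oil, groups that do not overlap. The difference of -0.37 ± 0.16 was not called (adjusted p = 0.246), nor was that of -0.51 without progesterone array 1 (adjusted p = 0.0509). At 4 and 28 h the differences were -0.15 and -0.22 (adjusted p = 0.768 and 0.699), with overlapping groups. All 4 were below 0, and the F-test over the times was not called (adjusted p = 0.643). Some markers of lymphocytes, antigen-presenting cells and endothelium were lower in the same samples at 76 h. Of 7 T cell markers 4 fell at 76 h (Cd8a by 0.59, Cd5 by 0.52, Cd3d by 0.51 and Ccr7 by 0.47), and their summed intensity was 3952 to 4171 with progesterone, against 5407 to 5780 with oil. Of 8 B and plasma cell markers 2 fell at 76 h (Cd79b by 0.59 and Ms4a1 by 0.52), with sums of 6734 to 8921 with progesterone and 9068 to 11881 with oil. Of 6 endothelial markers 3 fell (Cdh5 by 0.47, Tek by 0.39 and Kdr by 0.35), with sums of 3677 to 4057 with progesterone and 4687 to 5115 with oil. Of 10 dendritic cell and macrophage markers 3 fell (Cd83 by 0.57, H2-Aa by 0.28 and Cd74 by 0.20), with sums of 18769 to 19979 with progesterone and 21217 to 22224 with oil. Of these 10, however, 6 had differences above 0, and the list median was 0.01, beside 0.02 for all genes. With single arrays left out, 1 to 4 T cell, 0 to 3 B and plasma cell, 1 to 3 endothelial and 1 to 3 dendritic cell and macrophage markers were called lower, the T cell count being 1 without oil array 2 or progesterone array 3 and the B and plasma cell count 0 without oil array 2.

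Over the 24 arrays the log2 intensity of Traf1 had a Pearson r of 0.672 with the mean of the endothelial markers and of 0.615 with that of the T cell markers. With the means of the basal and luminal epithelial markers r was -0.661 and -0.569. After group means were taken out, r was 0.678 with endothelium, 0.113 with T cells, -0.294 with basal and -0.166 with luminal epithelium. These are descriptions over arrays that share treatment and time. All of these markers passed the filter, and their part in the difference of Traf1 was not tested.

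Nfkb2, the p100 precursor of the non-canonical branch, was lower with progesterone at 4 h on every array but was not called. Probe set 1425902_a_at read 181, 152 and 229 with progesterone at 4 h, against 302, 377 and 291 with oil. The means were 187 ± 38.8 with progesterone and 323 ± 46.5 with oil (SD, n = 3 each), groups that do not overlap. The difference was -0.80 ± 0.22, with an unadjusted p of 0.00143 and an adjusted p of 0.120. Without progesterone array 3 the difference was -0.96 and was called (adjusted p = 0.0273). The other probe set, 1429128_x_at, gave -0.20 (adjusted p = 0.586), and with the 9 later oil arrays as control the brighter probe set gave -0.37 (adjusted p = 0.224, where 6.51% of all genes were called). T cell marker sums at 4 h were 3835 to 5506 with progesterone and 5120 to 6392 with oil. Of the 7 T cell markers 0 were called at 4 h, but 3 were lower without progesterone array 3. The part of these markers in the Nfkb2 difference was not tested.

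At later times Nfkb2 did not separate the groups. At 16 h it read 230, 228 and 254 with progesterone, against 287, 224 and 176 with oil. At 28 h it read 299, 309 and 234 with progesterone, against 393, 357 and 184 with oil. At 76 h, when Tnfsf11 was high, it read 180, 218 and 246 with progesterone, against 182, 206 and 226 with oil. The differences were 0.08, -0.09 and 0.07 (SE 0.22 each), with adjusted p of 0.863, 0.957 and 0.884, and the F-test over the times gave an adjusted p of 0.148. The oil groups themselves ranged widely, from 204 ± 22.1 at 76 h to 323 ± 46.5 at 4 h (adjusted p = 0.0939 for a difference among oil groups).

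Relb, the partner of processed p100, had a single probe set, 1417856_at, and was not called at any time. At 4 h it read 373, 362 and 362 with progesterone, against 458, 452 and 384 with oil, groups that do not overlap. The difference was -0.24 ± 0.15 (adjusted p = 0.564). At 16 h the values were 324, 262 and 310 with progesterone, against 386, 349 and 284 with oil, and at 28 h they were 360, 376 and 321 with progesterone, against 469, 412 and 269 with oil. At 76 h they were 267, 255 and 311 with progesterone, against 285, 299 and 329 with oil. These 3 pairs of groups overlap, with differences of -0.18, -0.09 and -0.14 and adjusted p of 0.535, 0.938 and 0.613. With the 9 earlier oil arrays as control, Relb at 76 h was lower by 0.45 (adjusted p = 0.00780), the comparison that called 32.6% of all genes. Both progesterone and oil arrays were lower at 76 h than at 4 h, and the adjusted p for a difference among oil groups was 0.104.

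Oil array 3 at 28 h was the lowest of its group for both Nfkb2 (184) and Relb (269). Without it the difference among oil groups was called for both genes, and the time dependence of the progesterone difference was called for Nfkb2.

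Nfkbia, which encodes IkB-alpha, was bright on all arrays and was not called at any time. Probe set 1420088_at read 3578, 3778 and 4996 with progesterone at 4 h, against 3903, 4120 and 5140 with oil. At 16 h it read 5682, 4786 and 4110 with progesterone, against 5737, 5897 and 5217 with oil. At 28 h it read 4206, 4157 and 4689 with progesterone, against 4810, 4910 and 4912 with oil, the only time at which its groups did not overlap. At 76 h it read 4631, 4694 and 4296 with progesterone, against 4340, 4478 and 4497 with oil. The differences were -0.10, -0.22, -0.17 and 0.03 (SE 0.11 each), with adjusted p of 0.780, 0.303, 0.637 and 0.889. Without progesterone array 1 the 16 h difference was -0.34 (adjusted p = 0.0510). The 95% interval at 76 h was -0.20 to 0.26. The other 4 probe sets gave no call at any time, with 76 h differences of 0.01 to 0.21.

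Nfkb2 and Nfkbia are both textbook targets of NF-kB, and their RefSeq promoter windows (GRCm38.p6) are shown because they hold the kB consensus motif, which is in capitals here (either strand). The first of 3 Nfkb2 windows (chr19:46304487-46304786, plus strand) has 3 matches, of which 2 overlap, in 2 stretches, beginning 39 and 11 bases before the start. The Nfkbia window (chr12:55492598-55492897, minus strand) has 1 match, beginning 29 bases before the start.
Nfkb2: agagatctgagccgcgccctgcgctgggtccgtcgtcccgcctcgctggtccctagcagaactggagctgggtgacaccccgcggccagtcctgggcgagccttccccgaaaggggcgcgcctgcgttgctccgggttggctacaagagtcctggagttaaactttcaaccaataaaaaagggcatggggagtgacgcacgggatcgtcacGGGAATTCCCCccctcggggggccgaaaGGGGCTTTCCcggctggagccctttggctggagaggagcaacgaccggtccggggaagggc
Nfkbia: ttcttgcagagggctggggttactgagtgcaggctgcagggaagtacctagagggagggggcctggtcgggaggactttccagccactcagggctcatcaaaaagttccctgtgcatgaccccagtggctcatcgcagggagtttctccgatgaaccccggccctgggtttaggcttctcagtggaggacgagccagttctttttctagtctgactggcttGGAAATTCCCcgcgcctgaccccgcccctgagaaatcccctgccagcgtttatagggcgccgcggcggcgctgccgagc
The other Nfkb2 windows hold matches too, while the windows of Tnfsf11, Tnfrsf11a, Traf6 and Traf1 hold none. In all, 6 of the 8 genes had windows. A match is a description of letters, and 8.46% of all windows have one. Neither gene that holds them was called at any of the 4 times.

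**Figure D4:**
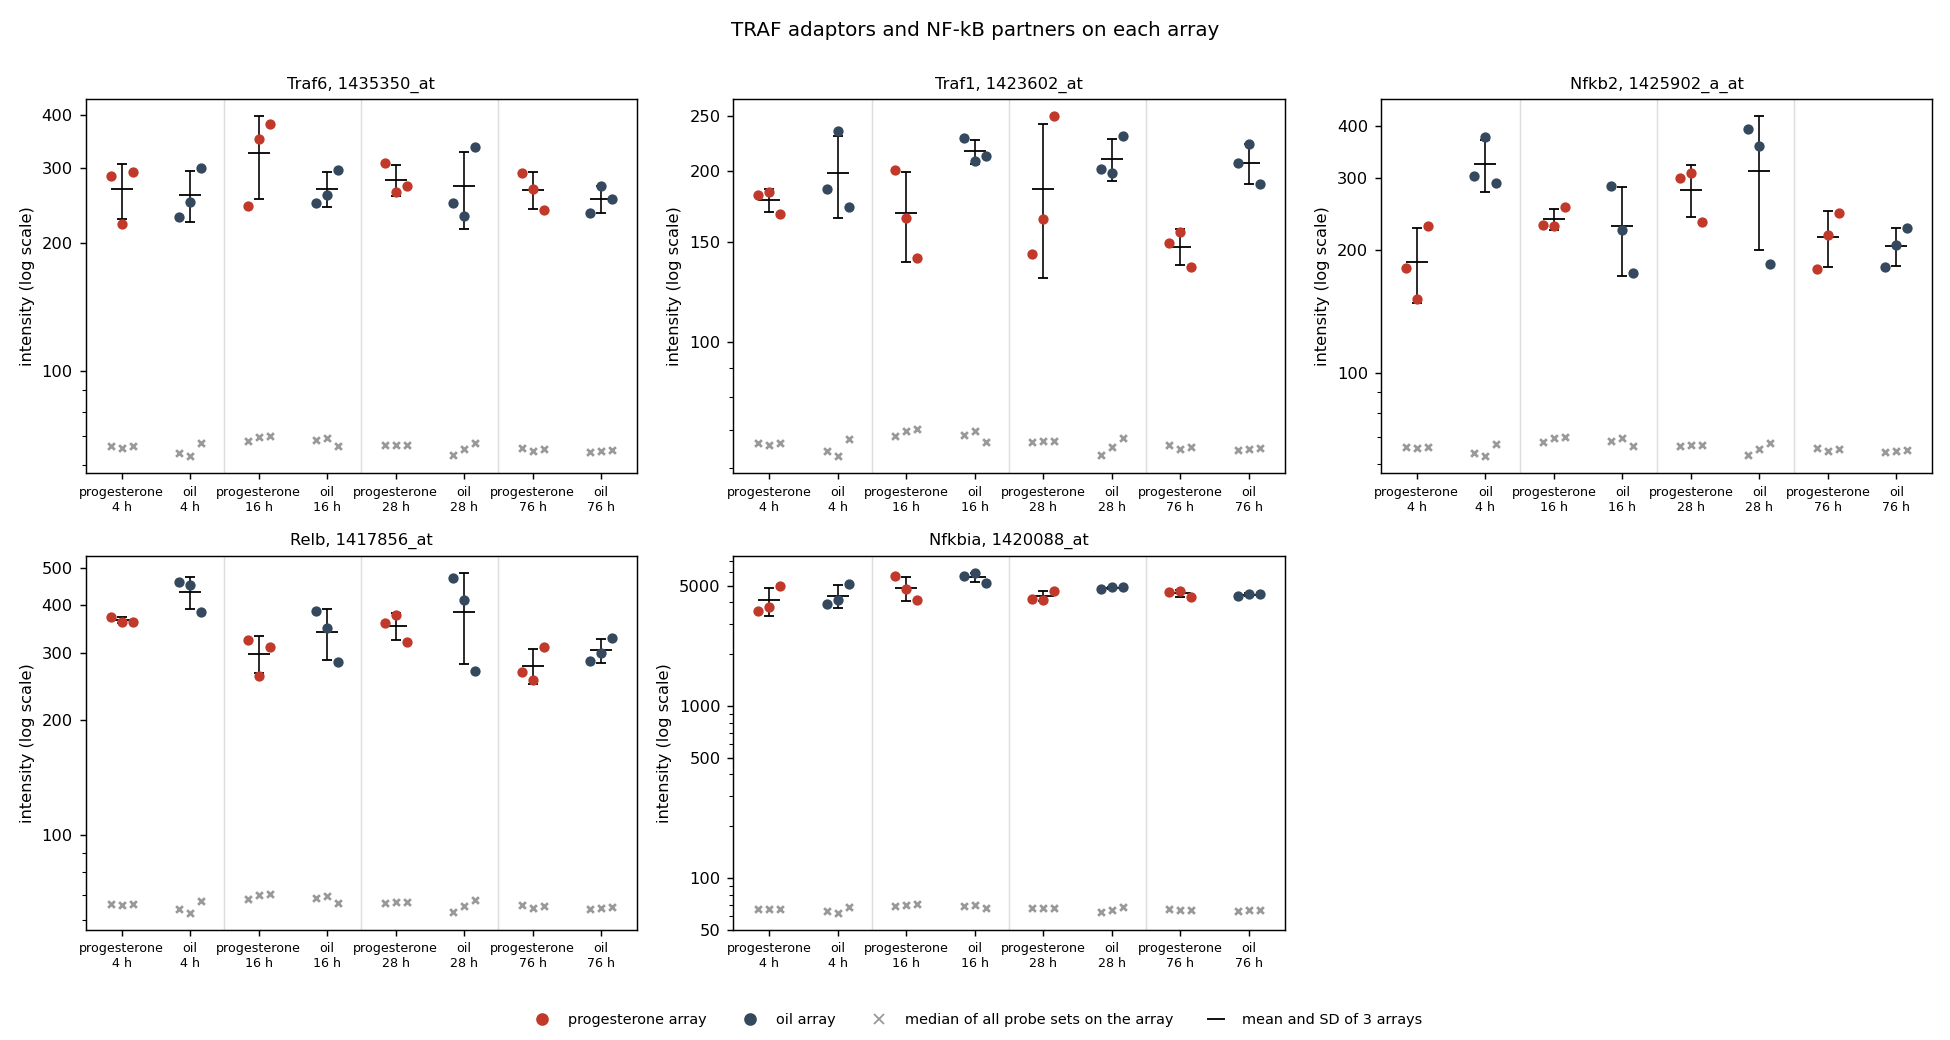
Intensity (vertical axis, log scale) of Traf6, Traf1, Nfkb2, Relb and Nfkbia on each of the 24 arrays, with the mean and SD of 3 arrays per group and the array medians as grey crosses. All 5 genes lie above the median on every array. Groups stand apart for Traf1 at 16 and 76 h, for Nfkb2 and Relb at 4 h and for Nfkbia at 28 h, and of these only Traf1 at 76 h was called.

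Wider lists of the NF-kB machinery, which include Nfkb2, Relb, Nfkbia, Traf1 and Traf6, gave few calls against the oil arrays of the same time. Of all tested genes, 0.186%, 0.308%, 2.53% and 17.8% were called at 4, 16, 28 and 76 h. Of the 4 tested NF-kB subunit genes (Nfkb2, Relb, Rela and Rel), 0 were called at any time, and at 76 h the median difference was 0.04, beside 0.02 for all genes. Without progesterone array 3 at 4 h, 1 of the 4 was lower. Rela, the main canonical subunit, read 1164 ± 39.8 with progesterone and 1158 ± 73.2 with oil at 76 h, a difference of 0.01. Of 6 IkB family genes and of 10 genes for the IkB kinases and the kinases above them, 0 were called at any time. Their medians at 76 h were -0.08 and 0.03. At 16 h, without progesterone array 1, the calls were 1 IkB gene lower, 1 kinase gene higher and 4 lower. Of 15 TRAF adaptors and regulators, Sqstm1 (p62, a scaffold of TRAF6) fell by 0.46 at 4 h and Traf1 fell at 76 h. With oil arrays of the other times as control the 4 h difference of Sqstm1 was -0.12 (adjusted p = 0.363). With single arrays of 4 h left out, 0 of the 15 were called, except without progesterone array 3, when 2 were lower. At 16 h 0 were called, but 5 were lower without progesterone array 1. With oil arrays of the other times as control, 1 subunit, 1 IkB and 4 TRAF list genes were called lower at 76 h. That control also gave 1 kinase gene higher, in the comparison that called 32.6% of all genes.

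Genes that NF-kB is known to induce were called in both directions, at 76 h in a share close to that of all genes. Of 25 tested members of that list, 0 were called at 4 h or 16 h, although without progesterone array 1 the calls at 16 h were 1 higher and 4 lower, and without progesterone array 3 1 was lower at 4 h. At 28 h Lcn2 (0.63), Ier3 (0.55) and Csf1 (0.41) were higher and Vcam1 (-0.62) was lower, which is 4 of 25 where 2.53% of all genes were called. With oil arrays from other times as control 0 of the 4 were called, where 0.874% of all genes were. Without progesterone array 1 at 28 h, 0 of the 25 were called. At 76 h Ier3, an early-response survival gene, rose by 0.89 and Lcn2, an iron-binding protein also made by mammary epithelium, rose by 0.85. At that time Cebpd, an acute-phase transcription factor, fell by 0.55, Traf1 by 0.49 and Sod2, a mitochondrial superoxide dismutase, by 0.37. The list median at 76 h was -0.14, beside 0.02 for all genes, and 5 of the 25 were called where 17.8% of all genes were. With the earlier oil arrays as control, 2 were higher and 9 lower, in the comparison that called 32.6% of all genes. The chemokines and cytokines Cxcl2, Cxcl5, Ccl20 and Il6, and also Ptgs2, were above the array median on too few arrays to be tested.

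Genes that RANK switches on in osteoclasts, its best-known target cell, were called at 76 h in a share close to that of all genes. Of 11 tested, 0 were called before 76 h. Without progesterone array 3 at 4 h the calls were 1 higher and 1 lower, and without oil array 3 at 28 h 2 were higher. At 76 h the kinase gene Src rose to 293 ± 23.1 with progesterone, against 201 ± 17.3 with oil (0.55, adjusted p = 0.0429), and Acp5, the tartrate-resistant phosphatase, stood at 1962 ± 157 with progesterone and 2444 ± 115 with oil (-0.32, adjusted p = 0.0225). That is 2 of 11, where 17.8% of all genes were called. Without progesterone array 1 or 2 at 76 h, 0 of the 11 were called. Calcr, Dcstamp and Ocstamp, which mark the mature osteoclast, did not pass the filter.

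The relatives of RANKL gave smaller differences, although the contrast between Tnfsf11 and them was not tested. Of 7 tested TNF superfamily ligands, Tnfsf11 rose at 76 h and Tnfsf13b (BAFF, a survival factor of B cells) fell by 0.62 (adjusted p = 0.00501), while the list median was -0.31. The other ligands gave differences below 0 at that time, down to -0.84 for Lta, which was not called (adjusted p = 0.0585). Of 19 tested TNF receptors, Tnfrsf12a (the TWEAK receptor) rose at 28 h (243 ± 51.6 with progesterone and 113 ± 8.93 with oil, 1.09, adjusted p = 0.00121) and at 76 h (0.77). Tnfrsf21 (death receptor 6) rose at 76 h to 536 ± 43.7 with progesterone, against 243 ± 10.4 with oil (1.14, adjusted p = 1.35e-05). Cd27, a receptor of T and B cells, fell by 0.51. Tnfrsf11a was among the 16 that were not called at 76 h. At that time 2 of the 19 receptors were called higher and 1 lower, where 17.8% of all genes were called. Of the 7 ligands 1 was higher and 1 lower. At 28 h 1 of the 19 receptors was called, where 2.53% of all genes were. Without progesterone array 1 at 16 h, 3 receptors were called higher, 4 receptors lower and 1 ligand lower at that time, and without progesterone array 3 at 4 h 1 receptor and 1 ligand were lower, while with all arrays 0 of either list were called at these times.

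Genes known from the progesterone and RANKL axis of the mammary epithelium included some that were called at earlier times than Tnfsf11. Pgr, the progesterone receptor, was lower from 4 h (85.5 ± 15.6 with progesterone and 464 ± 46.6 with oil) to 28 h, and at 76 h it read 279 ± 29.7 with progesterone and 279 ± 43.2 with oil. Wnt4, the other paracrine signal of hormone-sensing cells, was called at 16 h (1.33), 28 h (1.27) and 76 h (2.22). At 4 h it read 156 ± 14.4 with progesterone and 78.6 ± 12.7 with oil, which was not called (0.99, adjusted p = 0.0688). Tnfsf11 differed by -0.26 and 0.37 at 16 and 28 h. Id4, a basal-cell regulator, was called at 28 h (1.52) and 76 h (2.73), and the cell cycle gene Ccnd1 at 28 h (0.57) and 76 h (1.29). Elf5, the alveolar transcription factor known to act below RANKL in mice, read 130 ± 41.2 with progesterone and 236 ± 68.8 with oil at 28 h (-0.88, adjusted p = 0.0882). At 76 h it rose to 778 ± 66.2 with progesterone, against 156 ± 47.2 with oil (2.36, adjusted p = 8.21e-07).

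Of the 10 tested genes of this axis, the numbers called higher and lower were 0 and 1 at 4 h (1 and 1 without progesterone array 3), 1 and 1 at 16 h (3 and 1 without progesterone array 1), 3 and 1 at 28 h, and 6 and 0 at 76 h. The 6 were Rspo1, Tnfsf11, Id4, Elf5, Wnt4 and Ccnd1, and 6 were also called whichever array of that time was left out. The median at 76 h was 1.75, beside 0.02 for all genes. Of all tested genes, 0.186%, 0.308%, 2.53% and 17.8% were called at 4, 16, 28 and 76 h. At 76 h these were 11.1% higher and 6.7% lower. Id2, which carries the proliferative signal of RANKL in mice, was not called (0.15 at 76 h, adjusted p = 0.434, with 1070 ± 151 with progesterone and 955 ± 32.9 with oil). The list was drawn up with results of these arrays known, so that its direction is no separate evidence.

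**Figure D5:**
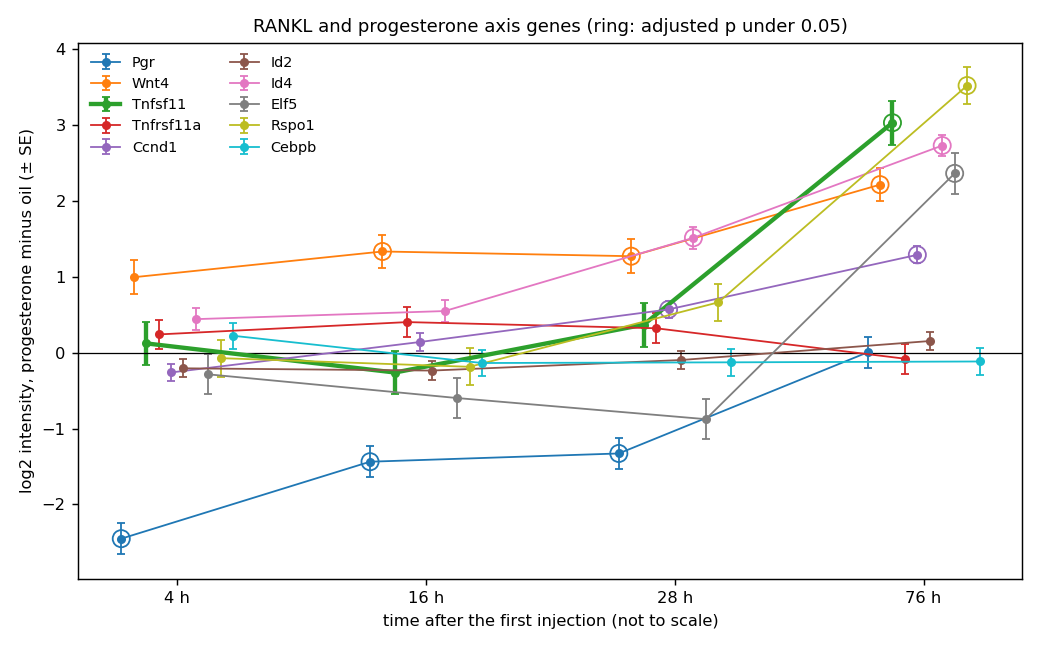
Difference in log2 intensity between progesterone and oil (vertical axis, with SE from limma, 3 arrays per group) for 10 genes of the RANKL and progesterone axis at 4, 16, 28 and 76 h (horizontal axis, in order and not to scale). Rings mark an adjusted p under 0.05, and Tnfsf11 is drawn thick. Wnt4 is ringed from 16 h and Tnfsf11 at 76 h only, while Pgr is at -2.45 at 4 h and 0.00 at 76 h.

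The genes whose log2 intensity followed that of Tnfsf11 most closely over the 24 arrays were Irx3 (Pearson r = 0.951), Emid1 (0.947), Pbk (0.941), Rspo1 (0.931) and Stmn1 (0.925). Irx3 is a homeobox factor, Emid1 a matrix protein, Pbk a mitotic kinase, Rspo1 an enhancer of WNT signalling and Stmn1 a microtubule regulator. Each was called higher at 76 h, by 1.81, 2.37, 2.55, 3.52 and 1.63 in that order. A choice by likeness to Tnfsf11 favours such genes, so these calls are no separate evidence. The likeness rests largely on the 3 progesterone arrays of 76 h: over the other 21 arrays r was 0.61, 0.55, 0.59, 0.36 and 0.49. By the 8 group means the 5 closest were Gins2 (0.989), Irx3 (0.988), Pbk (0.986), Defb1 (0.984) and Emid1 (0.983), where Gins2 is a DNA replication factor and Defb1 a beta-defensin.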

How the data were processed

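Total RNA was extracted with Trizol and hybridized after one-cycle biotin labelling to 1 array per pool, per the labels' protocols. The deposited values are linear intensities, as their range shows (3.38 to 15710). How the probes were summarized, and how arrays were scaled to each other, is not stated in the labels or files used. Genes were named through GEO's platform annotation, in which 34945 probe sets had 1 symbol, 932 several and 9160 none, and 64 control probe sets were left out.

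Values under the 10th percentile were raised to it (7.38) before taking log2. Array medians spanned 0.16 on the log2 scale, under the limit of 0.3 for further normalization. A linear model with 8 group means was fitted to all 24 arrays with limma 3.58.1 in R 4.3.3 (16 residual degrees of freedom, intensity trend in the variance). Tests are two-sided, moderated, and adjusted by Benjamini-Hochberg over all 12352 genes. The procedure was tested on simulated data. With 3 arrays per group, precision is limited by their number. Promoter windows are RefSeq's (GRCm38.p6).

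The members, the gene lists and the tests were chosen with earlier results of these data known. The rule for named genes took the 8 genes, the 5 nearest to Tnfsf11 by each measure, up to 4 called genes per list and time with the largest differences, and Pgr, Wnt4, Ccnd1, Elf5 and Id2. Rela, Lta and the untested genes named in the text were chosen after their values were seen. Alternatives were other filters, normalizations, floors, a pseudocount of 16, probe sets, variance models, a 6-array fit, a replicate block, oil arrays of other times and leaving out each array. Counts of lists without single arrays were added after seeing the data.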

Additional observations from a re-analysis of the deposited data

Results flagged for a closer look

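The progesterone difference of Tnfsf11 depended on time, with an adjusted p of 2.85e-05 in limma's moderated F-test of the 4 differences (0.12, -0.26, 0.37 and 3.03 on the log2 scale at 4, 16, 28 and 76 h). Probe sets that were not used for the genes also carried differences past the threshold. The dimmer Tnfrsf11b probe set, 1449033_at, was higher with progesterone by 1.37 on the log2 scale at 28 h and by 2.14 at 76 h, on arrays where all its values lay under the array median. The second Tnfsf11 probe set, 1451944_a_at, was higher by 2.60 at 76 h. Groups of 3 arrays are too small for a test of single outlying arrays.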

How the results depend on the processing

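Tnfsf11 at 76 h was called under all 19 alternatives, with differences of 2.60 to 3.11. The 2 members called at 76 h became 1 (Tnfsf11) with no filter on low values, with the replicate block (Traf1 adjusted p = 0.0510), and when each of its 6 arrays was left out in turn (range 1 to 1), and 3 (with Relb) when the 9 earlier oil arrays were the control. With arrays left out in turn the count of members called ranged from 0 to 1 at 4 h (Nfkb2 without progesterone array 3) and from 0 to 1 at 16 h (Tnfrsf11a without progesterone array 1). Members whose difference depended on time numbered 1 to 2, and members that differed among oil groups 0 to 2. Of 540 results of the other members under alternatives, 524 kept their call or lack of it, 9 lost a call, 7 gained one, 0 were reversed, and 33 changed sign without a call. Calls over all genes at 4, 16, 28 and 76 h were 23, 38, 313 and 2195. They were 11, 16, 76 and 3533 when each time's 6 arrays were fitted alone, 804, 559, 108 and 4028 against other oil arrays, and 12 to 477, 8 to 1843, 140 to 459 and 1383 to 1892 with arrays left out in turn. Replicate numbers were not taken to pair the samples, but shared handling by number is not excluded. Deviations of same-numbered pairs correlated at -0.02 to 0.35, and 6 of 12 passed 0.1. Those of differently numbered pairs correlated at -0.46 to 0.44. The cause of these correlations was not tested. The cause of the shifts in calls was not tested either. Values under the array median, as for Tnfrsf11b and for Tnfsf11 in oil, limit the size of a fold.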
